A study of Homo sapiens with 6 samples.

Results

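Chaperones and protein folding genes were followed by compartment across transfected MDA-MB 231 cells, a triple-negative breast cancer line. The 54 members were set as a list of heat shock proteins, subunits of the chaperonin TRiC and of prefoldin, co-chaperones, and folding or stress genes of the endoplasmic reticulum (ER). All 54 were found among the 24462 gene symbols of the count files, and all 54 were among the 12650 symbols with enough counts to be tested. They comprised 21 cytosolic genes, 11 TRiC and prefoldin subunits, 5 mitochondrial genes and 17 ER genes.

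Cells were harvested 48 h after transfection in 3 groups of 2 libraries each. The first group received a negative control (NC) mimic, for which the labels give no dose. The second received a miR-200a mimic at 100 nM. The third received the same mimic at 100 nM together with 30 ng of a plasmid carrying the ELK3 coding region without its 3′ untranslated region (3′UTR), named pcDNA3.1-Flag-ELK3 in the protocol and pcDNA3.1 Hygro(+)-ELK3 in the treatment label. No group with an empty plasmid is among the samples, so the effect of adding any plasmid and that of ELK3 cannot be told apart. All groups were a single cell line treated by transient transfection, and no label says that replicates came from separate cultures, so p-values measure the spread between these libraries, which may be technical.

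QuantSeq libraries read each polyadenylated RNA near its 3′ end, and their totals ran from 3055915 to 4868004 counts. Levels are given as CPM, counts scaled by TMM to a common library size, where 3 counts were worth 0.611 to 0.979 CPM. The floor covers counting error only. The plasmid gene, ELK3, had 618 and 509 counts in NC mimic libraries, 493 and 505 counts in miR-200a libraries, and 406 and 337 counts where the label gives both. A 3′ tag on the endogenous transcript need not report a plasmid transcript that lacks the 3′UTR, so these counts check neither the presence nor the absence of the plasmid. ELK3 was lowest there, called lower against the NC mimic (-0.79, SE 0.15, edgeR adjusted p = 0.0117), with -0.23 (SE 0.15) against miR-200a, and these libraries are called by their label, labelled co-transfected. Cell line markers were VIM (4068 to 11179 counts), CD44 (831 to 1652) and ZEB1 (342 to 579), while ESR1 was at 0 and PGR at no more than 1 count in any library. Several markers moved with the labelled co-transfected libraries. FN1 (-1.58 and -2.17), CD44 (-0.61 and -0.58) and CLDN7 (-1.21 and -0.88) were called lower against miR-200a and the NC mimic, and VIM gave -0.66 and -0.72 and did not pass, with its second co-transfected library at 956 CPM against 1854 CPM in the first. The part of these markers in the results was not tested. CLDN4 (589 to 1143 counts) and CLDN7 (123 to 416) were detected, whereas claudin-low cells are known for low claudins. In bulk RNA, fewer cells with a transcript and less of it per cell cannot be told apart.

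Chaperones bind unfolded proteins and release them in cycles driven by ATP. In the cytosol, HSP70 works with J proteins, which stimulate its ATPase, and with nucleotide exchange factors, and it passes some clients to HSP90 through the adaptor STIP1, while prefoldin hands actin and tubulin to the ring-shaped TRiC. The ER has its own HSP70 (HSPA5, also called BiP), its own HSP90 (HSP90B1, also called GRP94), lectin chaperones and disulfide isomerases. Cytosolic chaperone genes are known targets of HSF1, which binds the heat shock element, and ER chaperone genes are known targets of ATF6 and XBP1, which bind ER stress elements.

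The sequences that distinguish these branches were read from RefSeq promoter windows on GRCh38.p14, each with 250 bases before and 50 bases after a gene start. A window was found for 49 of the 54 members, and HSPA14, FKBP4, CCT6A, PFDN2 and PDIA3 had none. The heat shock element was searched as GAANNTTCNNGAA on both strands, and 0.490% of 35093 windows of this length held it. By gene, it was in a window of 0.480% of the 9373 tested genes with one. Among the members it was found in 7 of 49, of which 6 are cytosolic genes and 1 is the mitochondrial HSPD1. One match per gene is shown because the results below are grouped by it, written 5′ to 3′ on the strand of the gene with the element in capitals.
HSPA8 (chr11:123062171-123062199, minus strand): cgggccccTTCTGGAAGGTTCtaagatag
HSP90AA1 (chr14:102087112-102087140, minus strand): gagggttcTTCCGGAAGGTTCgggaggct
HSP90AB1 (chr6:44247823-44247851, plus strand): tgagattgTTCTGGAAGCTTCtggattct
CHORDC1 (chr11:90223089-90223117, minus strand): cgcgaccgGAAAATTCGCGAAggttcctg
DNAJA1 (chr9:33025268-33025296, plus strand): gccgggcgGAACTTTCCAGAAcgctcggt
DNAJB6 (chr7:157336865-157336893, plus strand): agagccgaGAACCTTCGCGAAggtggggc
HSPD1 (chr2:197500060-197500088, minus strand): attttctgGAAAGTTCTGGAAccgagcga

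The ER stress response element was searched as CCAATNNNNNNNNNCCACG on both strands, and 0.0769% of the windows held it. By gene, it was in 0.171% of the 9373 tested genes with a window. It was found in 7 of 49 members, all of them ER genes (CALR, CANX, CRELD2, HSP90B1, HSPA5, PDIA6 and XBP1). A second form, ATTGGNCCACG, was present in 0.0541% of windows and, by gene, in 0.139% of those tested genes. It was in 3 members, the ER genes HERPUD1, HYOU1 and SDF2L1. No member held both the heat shock element and either ER element. A match is a run of letters and not a shown binding site. The element is in capitals in the windows of the ER HSP70, the ER HSP90, the calcium-binding lectin calreticulin (CALR), the disulfide isomerase PDIA6, the secreted ER stress factor CRELD2, and HERPUD1, a membrane protein of ER-associated degradation.
HSPA5 (chr9:125241383-125241417, minus strand): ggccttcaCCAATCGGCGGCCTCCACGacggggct
HSP90B1 (chr12:103930208-103930242, plus strand): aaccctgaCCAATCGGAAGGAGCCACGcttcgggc
CALR (chr19:12938376-12938410, plus strand): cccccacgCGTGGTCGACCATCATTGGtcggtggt
PDIA6 (chr2:10812845-10812879, minus strand): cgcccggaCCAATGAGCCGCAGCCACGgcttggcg
CRELD2 (chr22:49918546-49918580, plus strand): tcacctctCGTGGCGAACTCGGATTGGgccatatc
HERPUD1 (chr16:56932017-56932043, plus strand): ggacgccgATTGGGCCACGttgggaga

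miR-200a is known to pair with 3′UTRs through its seed, bases 2 to 8, shown in capitals in the mature sequence, which RefSeq places at chr1:1167916-1167937 on the plus strand of GRCh38.p14. The matching site, CAGTGTT, was present in the 3′UTR of 6 of the 54 members, or 11.1%, against 21.6% of 11236 tested genes with a 3′UTR in GENCODE release 29. The 6 members were CANX, DNAJB6, HSPA13, HSPA4, HSPD1 and PTGES3. Shown with the site in capitals are those of DNAJB6 and HSPD1, with the lowest log2 fold changes of the 6 under miR-200a (-0.38 and -0.28), and both sites of HSPA13, with the highest (0.11), of which the second is followed by an A and is the only 8-base match among the members.
hsa-miR-200a-3p: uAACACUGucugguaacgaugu
DNAJB6 site: taatctagCAGTGTTgaagctgg
HSPD1 site: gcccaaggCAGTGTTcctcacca
HSPA13 site 1: tagaatgaCAGTGTTggaatttg
HSPA13 site 2: catttagcCAGTGTTatttgaag

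The first comparison, miR-200a against the NC mimic, asked what the mimic alone did. No member was called higher and none lower by edgeR's quasi-likelihood test at a Benjamini-Hochberg adjusted p under 0.05, against 0.213% of all tested genes called higher and 0.0553% called lower. At an unadjusted p under 0.05, 1 member was higher and 5 were lower, where 649 and 520 of all 12650 tested genes were. DESeq2 also called 0 and 0 members, where it called 0.282% and 0.0858% of 24462 symbols. The median log2 fold change over the members was -0.09, beside -0.02 over all tested genes. The 6 members with a seed site had a median of -0.14, the others -0.08.

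With only the NC mimic and miR-200a libraries in the model, 3 members were called higher and 4 lower, where 4.77% and 3.12% of tested genes were called. The level of HSPA8, the constitutive cytosolic HSP70, was 516 and 539 CPM with the NC mimic and 388 and 400 CPM with miR-200a. Both miR-200a libraries lay below both NC mimic libraries, and in this smaller model the log2 fold change was -0.40 (SE 0.06, edgeR adjusted p = 3.36e-05), whereas in the model of all 6 libraries it was -0.42 (SE 0.13, edgeR adjusted p = 0.313). DNAJB6, a J protein that suppresses aggregation (-0.36), HSPA9, the mitochondrial HSP70 (-0.35), and HSPD1, the mitochondrial chaperonin HSP60 (-0.26), were the other lower genes in the smaller model. Its higher genes were HSPB1 (0.21) and HSPB8 (2.19), both small heat shock proteins, and AHSA1 (0.25), an activator of the HSP90 ATPase. HSPB8 was a low gene, with 2 and 7 counts under the NC mimic and 30 and 24 counts under miR-200a, and 1 of its libraries was below the floor of 3 counts.

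The other comparisons set the labelled co-transfected libraries against miR-200a, which addresses what the plasmid added, and against the NC mimic. They share the same 2 co-transfected libraries and are not independent. Against miR-200a, 20 of 54 members (37.0%) were called higher, where 7.03% of all tested genes were, and 0 were called lower, where 5.91% were. At an unadjusted p under 0.05, 26 were higher and 2 lower, where 2083 and 1784 of all 12650 tested genes were. DESeq2 called 19 higher and 0 lower, where it called 2.55% and 2.31% of 24462 symbols, low ones included. Against the NC mimic, 15 members were called higher and 1 lower, where 6.92% and 5.95% of tested genes were. There DESeq2 called 10 higher and 1 lower, beside 2.67% and 2.29% of the 24462 symbols. The members' median log2 fold change was 0.31 and 0.23 in these comparisons, beside 0.02 and 0.01 over all tested genes. Members are mostly abundant genes, so the share was also taken among genes at or above 61.6 CPM, the lower quartile of the members' mean level. Of the 40 members at or above it, 19 and 14 were called higher, where 13.1% and 11.5% of such genes were. With upper-quartile normalization, 16 and 9 members were called higher, where 4.92% and 5.35% of all tested genes were.

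The calls were unevenly spread over compartments, although the difference between compartments was not itself tested. Against miR-200a, 13 of 21 cytosolic members, 4 of 11 TRiC and prefoldin members, 2 of 5 mitochondrial members and 1 of 17 ER members were called higher. The share over all tested genes was 7.03%, and the ER share of 5.88% was near it. Against the NC mimic, the numbers were 9, 2, 2 and 2, where 6.92% of all tested genes were called higher. The 1 member called lower was an ER gene, and 1 of 17 is near the 5.95% of all tested genes called lower. The median log2 fold changes against miR-200a and the NC mimic were 0.53 and 0.48 for the cytosolic members, 0.30 and 0.22 for TRiC and prefoldin, 0.49 and 0.34 for the mitochondrial members, and -0.10 and -0.22 for the ER members.

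**Figure D1:**
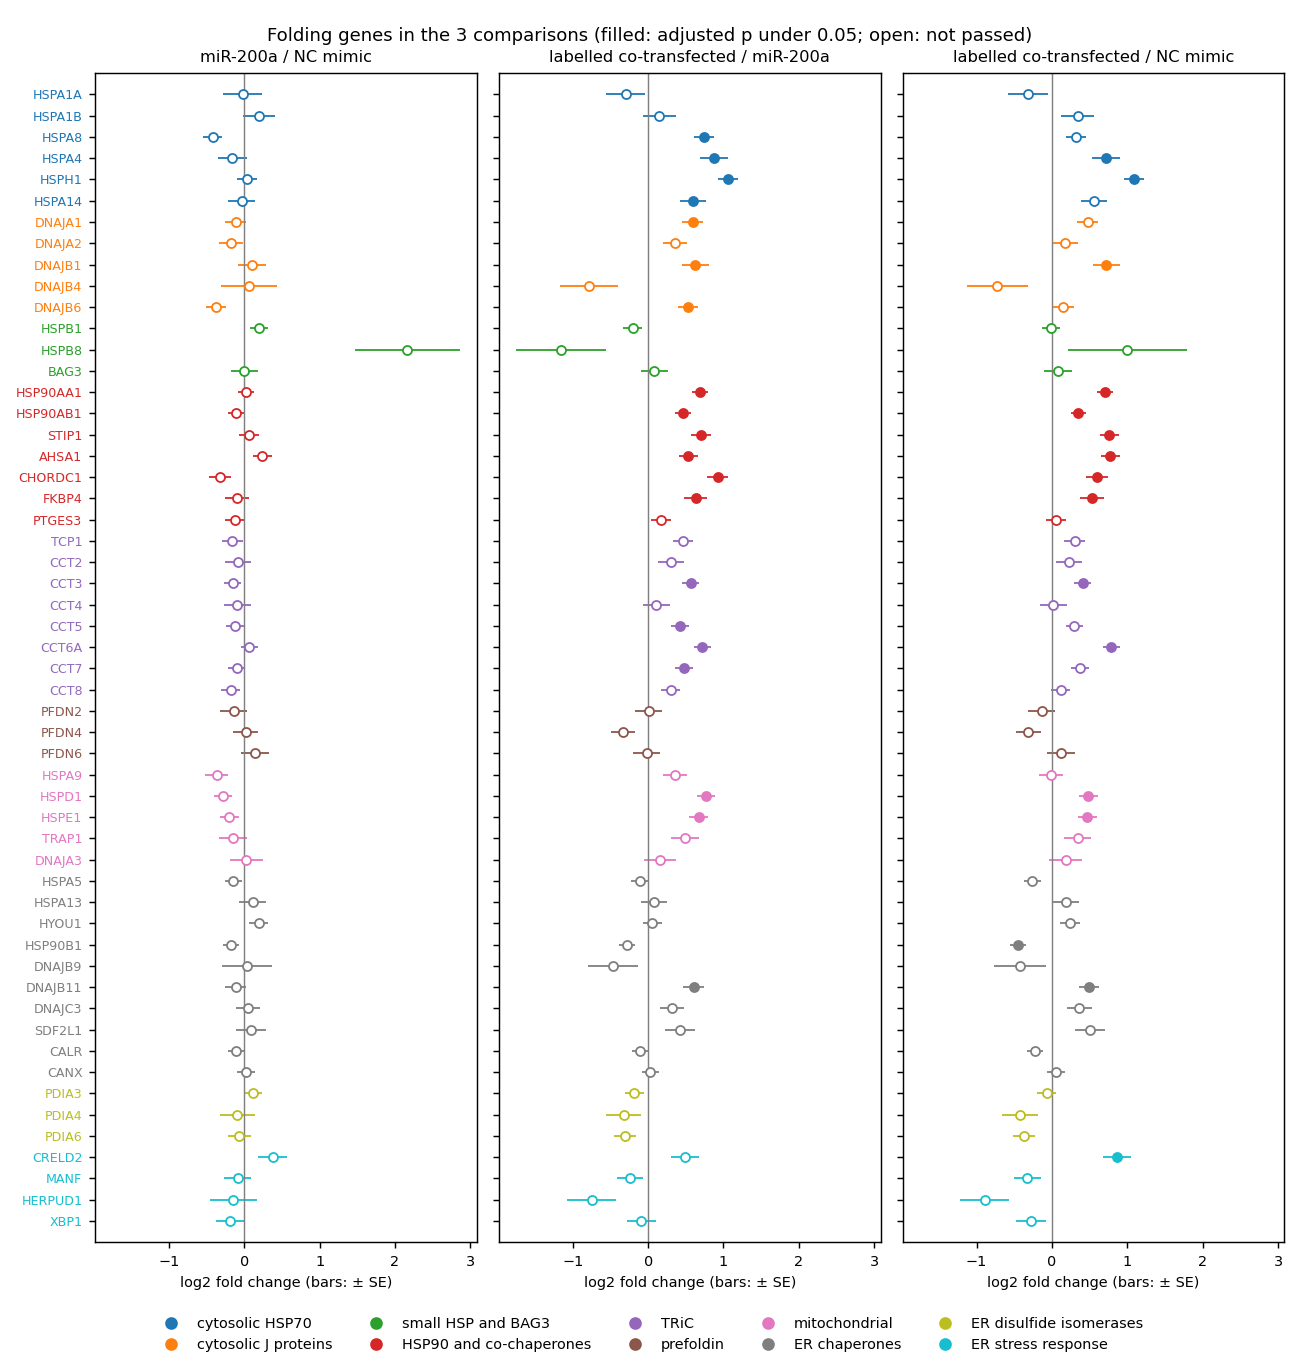
Log2 fold change of each of the 54 members in the 3 comparisons, 1 row per gene, coloured by compartment, with bars of 1 standard error from edgeR and filled points where the adjusted p was under 0.05. No point is filled for miR-200a against the NC mimic, while 20 and 16 are filled in the comparisons of the labelled co-transfected libraries, mostly in the cytosolic rows.

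The limits of these counts lie in the libraries. The spread between replicates, as the root mean square log2 difference over the members, was 0.33 in NC mimic libraries, 0.13 in miR-200a libraries and 0.51 in labelled co-transfected libraries. The 2 co-transfected libraries differed by more than 0.5 on the log2 scale for 14 of the 54 members, and 32.3% of all tested genes did so. For the NC mimic this held for 1 member and 16.3% of tested genes, and for miR-200a it held for 0 members and 13.2% of tested genes. The count of 20 members became 0 without either miR-200a library, 26 without the first co-transfected library and 27 without the second, where 19.2% and 11.1% of all tested genes were called higher. The count of 15 became 0 without the first and 1 without the second NC mimic library, and 23 without either co-transfected library, where 19.9% and 11.6% of all tested genes were. Leaving out a miR-200a or NC mimic library leaves that group with 1 library, whose spread is then taken from the other groups, and the 889 genes called higher over all tested genes against miR-200a became 2 and 5. All of the 20 and all of the 15 members kept a positive log2 fold change in each of these fits. The part of the uneven spread in the calls was not tested. The last 500 transcript bases of FKBP4, TCP1, CCT4, CCT5, PFDN6, TRAP1, HYOU1, CALR, PDIA3 and PDIA6 overlap a gene on the opposite strand, and it is not stated whether counting used strand, so their reads cannot be told apart from that gene's.

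Among the 6 cytosolic HSP70 members, 4 were called higher against miR-200a and 2 against the NC mimic. HSPH1, also called HSP110, is a nucleotide exchange factor for HSP70. Its level was 139 and 158 CPM with the NC mimic, 156 and 147 CPM with miR-200a, and 296 and 336 CPM in the labelled co-transfected libraries. Both co-transfected libraries lay far above the other 4, which overlapped. The log2 fold change was 1.06 (SE 0.13, edgeR adjusted p = 0.00236) against miR-200a and 1.09 (SE 0.13, edgeR adjusted p = 0.00136) against the NC mimic, or 2.09-fold and 2.13-fold.

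HSPA4, another exchange factor of the HSP110 type, had 142 and 131 CPM with the NC mimic, 127 and 117 CPM with miR-200a, and 177 and 271 CPM in the co-transfected libraries. It rose by 0.88 (SE 0.19) and 0.72 (SE 0.19) on the log2 scale, although the co-transfected libraries differed from each other by 0.61. HSPA8 stood at 731 and 586 CPM in the co-transfected libraries, above all other libraries. Against miR-200a it rose by 0.74 (SE 0.13, edgeR adjusted p = 0.00803), while against the NC mimic the value was 0.32 (SE 0.13, edgeR adjusted p = 0.124). HSPA14, a ribosome-associated HSP70, rose by 0.60 (SE 0.17) against miR-200a, with 0.56 (SE 0.17) against the NC mimic.

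HSPA1A and HSPA1B, the stress-inducible HSP70 genes and the usual readout of a heat shock response, did not pass the test. HSPA1A had 63.5 and 65.9 CPM with the NC mimic, 65.0 and 62.1 CPM with miR-200a, and 69.2 and 34.5 CPM in the labelled co-transfected libraries. HSPA1B had 56.3 and 60.0, 63.1 and 69.9, and 91.9 and 55.7 CPM in the same order. In both genes the first co-transfected library was the highest of all 6 and the second was the lowest, so the groups overlapped. The log2 fold changes of HSPA1A were -0.29 (SE 0.26) and -0.32 (SE 0.26) against miR-200a and the NC mimic, and those of HSPA1B were 0.15 (SE 0.21) and 0.34 (SE 0.22). Without the first co-transfected library HSPA1A was called lower against miR-200a (-0.88), and without the second HSPA1B was called higher.

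The pair is close to identical in the coding region, with 4 mismatches over 1926 bases (99.8% identity). Their 3′UTRs, of 264 and 379 bases, shared no run longer than 10 bases, and the sources used here do not say how reads matching several places were counted. The ratio of HSPA1A to HSPA1B counts was 1.13 and 1.10 under the NC mimic, 1.03 and 0.889 under miR-200a, and 0.753 and 0.620 in the co-transfected libraries. HSPA1A was on 5 lines of the files, 4 of them at 0. The split between HSPA1A and HSPA1B is therefore given as uncertain.

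Of the 5 cytosolic J protein members, 3 were called higher against miR-200a and 1 against the NC mimic. DNAJB1, the J protein best known for induction by heat shock, had 100 and 94.6 CPM with the NC mimic, 99.0 and 110 CPM with miR-200a, and 130 and 192 CPM in the co-transfected libraries. It rose by 0.62 (SE 0.18, edgeR adjusted p = 0.0472) and 0.72 (SE 0.18, edgeR adjusted p = 0.0300), with the co-transfected libraries above the rest but 0.56 apart on the log2 scale. DNAJA1, a farnesylated partner of HSPA8, had 122 and 119 CPM in the co-transfected libraries against 79.5 to 93.3 CPM elsewhere, and it rose by 0.59 (SE 0.14) against miR-200a. DNAJB6 was at 128 and 117 CPM with the NC mimic, 98.4 and 89.9 CPM with miR-200a, and 137 and 135 CPM in the co-transfected libraries. Its rise of 0.53 (SE 0.13) against miR-200a stood beside 0.15 (SE 0.13) against the NC mimic, which did not pass.

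HSP90 and its co-chaperones held the highest share of calls of the compartments, with 6 of 7 members called higher in both comparisons. HSP90AA1, the inducible cytosolic HSP90, had 3264 and 3034 CPM with the NC mimic, 3185 and 3197 CPM with miR-200a, and 4787 and 5507 CPM in the labelled co-transfected libraries. The rise was 0.69 (SE 0.11, edgeR adjusted p = 0.00502) against miR-200a and 0.71 (SE 0.11, edgeR adjusted p = 0.00396) against the NC mimic. HSP90AB1, the constitutive form, had 4325 and 4158, 3926 and 3932, and 5045 and 5788 CPM in the same order. It rose by 0.46 (SE 0.10) and 0.35 (SE 0.10), the second with an edgeR adjusted p of 0.0495. In both genes every co-transfected library lay above every other library.

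Of the 5 co-chaperones, 4 were higher in the labelled co-transfected libraries than in both other groups, while miR-200a lay above the NC mimic on average for STIP1 and AHSA1 and below it for CHORDC1 and FKBP4. STIP1, the adaptor between HSP70 and HSP90, had 157 and 150 CPM with the NC mimic, 157 and 164 CPM with miR-200a, and 240 and 280 CPM in the co-transfected libraries, a rise of 0.70 (SE 0.13) and 0.76 (SE 0.13). AHSA1 had 226 and 196, 243 and 256, and 356 and 368 CPM, a rise of 0.53 (SE 0.12) and 0.77 (SE 0.12). CHORDC1, an HSP90-binding protein, had 72.2 and 71.1 CPM with the NC mimic, 58.8 and 55.6 CPM with miR-200a, and 114 and 103 CPM in the co-transfected libraries. Its rise was 0.92 (SE 0.14) against miR-200a and 0.60 (SE 0.14) against the NC mimic. FKBP4, a prolyl isomerase of steroid receptor complexes, rose by 0.63 (SE 0.15) and 0.53 (SE 0.15). PTGES3, the p23 co-chaperone, gave 0.17 (SE 0.13) and 0.05 (SE 0.13), and its groups overlapped.

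The small heat shock proteins HSPB1 and HSPB8 and the exchange factor BAG3, which works with HSPB8, gave no call by edgeR in either comparison, 0 at an unadjusted p under 0.05 and 0 by DESeq2. HSPB8 had 16 and 5 counts in the co-transfected libraries, a log2 fold change of -1.16 (SE 0.60) against miR-200a and 1.00 (SE 0.79) against the NC mimic.

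**Figure D2:**
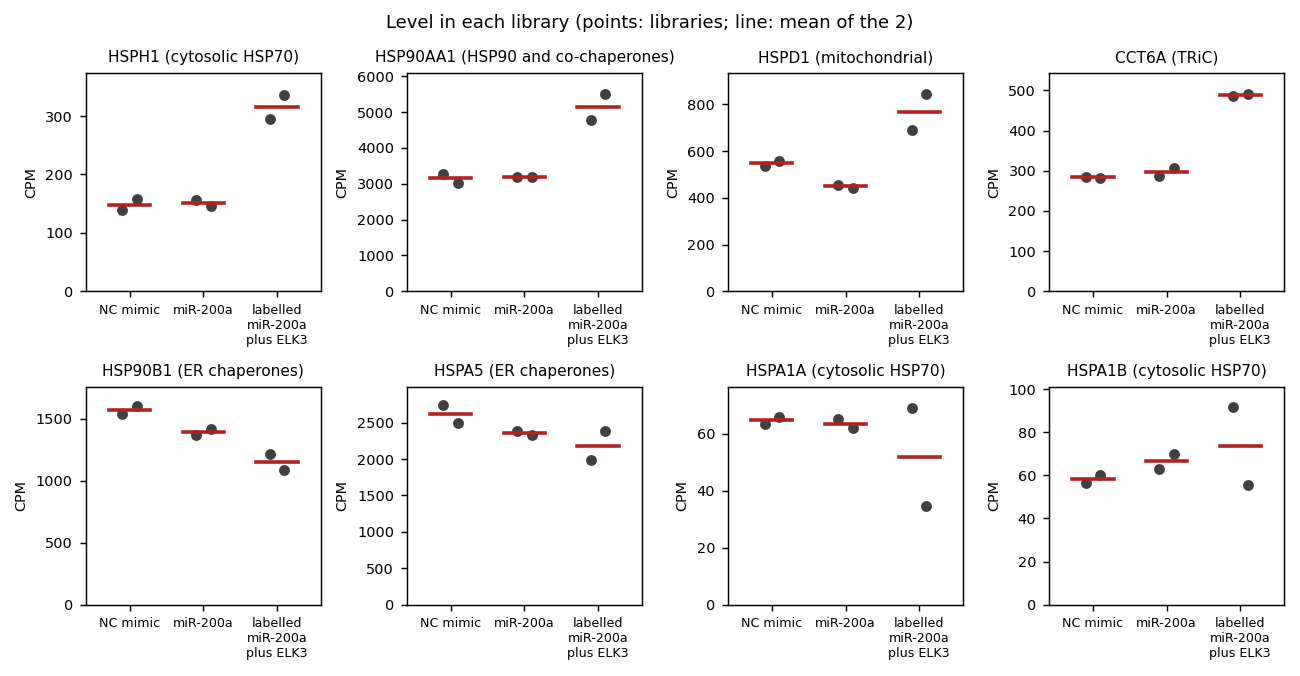
TMM-scaled CPM of 8 members in each of the 6 libraries, with 1 point per library and a line at the mean of the 2 libraries of each group, and axes starting at 0. HSPH1, HSP90AA1, HSPD1 and CCT6A are higher in both labelled co-transfected libraries than in the other 4, HSP90B1 is lowest there, HSPA5 overlaps the miR-200a libraries, and HSPA1A and HSPA1B differ between the 2 co-transfected libraries.

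TRiC is a double ring of 8 different subunits that folds actin, tubulin and other proteins, and all 8 measured subunits had positive log2 fold changes in both comparisons with all libraries in the model, from 0.11 to 0.72 against miR-200a and from 0.02 to 0.79 against the NC mimic. Of these, 4 were called higher against miR-200a (CCT3, CCT5, CCT6A and CCT7) and 2 against the NC mimic (CCT3 and CCT6A). CCT6A had 286 and 282 CPM with the NC mimic, 287 and 306 CPM with miR-200a, and 486 and 492 CPM in the co-transfected libraries. These co-transfected libraries were close to each other and clear of the rest, and the rise was 0.72 (SE 0.11, edgeR adjusted p = 0.00517) and 0.79 (SE 0.11, edgeR adjusted p = 0.00299). CCT3 had 318 and 329, 292 and 289, and 413 and 446 CPM, a rise of 0.56 (SE 0.11) and 0.41 (SE 0.11). CCT5 and CCT7 rose by 0.42 (SE 0.12) and 0.48 (SE 0.11) against miR-200a. CCT4 gave the smallest values, 0.11 (SE 0.18) and 0.02 (SE 0.18), and its co-transfected libraries, at 413 and 271 CPM, lay on either side of all other libraries. Leaving out 1 library reversed it: CCT4 was called lower without the first co-transfected library (-0.23 against miR-200a and -0.30 against the NC mimic) and higher without the second (0.34 and 0.27).

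Prefoldin, the complex that delivers nascent actin and tubulin to TRiC, gave no call by edgeR among its 3 members, 0 at an unadjusted p under 0.05 and 0 by DESeq2. PFDN4 had the smallest p of them, with 195 and 190 CPM with the NC mimic, 184 and 206 CPM with miR-200a, and 181 and 128 CPM in the co-transfected libraries. Its log2 fold change was -0.33 (SE 0.16, edgeR adjusted p = 0.199) and -0.32 (SE 0.17, edgeR adjusted p = 0.225). PFDN6 gave -0.02 against miR-200a. PFDN2 gave 0.01, with co-transfected libraries at 355 and 231 CPM, on either side of all others. Without the first co-transfected library, PFDN4 (-0.60) and PFDN2 (-0.33) were called lower against miR-200a, and without the second PFDN2 was called higher (0.24).

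In the mitochondrion, HSPD1 forms the chaperonin cage and HSPE1 its lid, and their genes lie head to head. HSPD1 had 538 and 559 CPM with the NC mimic, 457 and 444 CPM with miR-200a, and 690 and 845 CPM in the labelled co-transfected libraries. HSPE1 had 170 and 163, 141 and 149, and 246 and 216 CPM. Both genes were higher in the co-transfected libraries than in all others, and both had their lowest levels with miR-200a. HSPD1 rose by 0.77 (SE 0.13, edgeR adjusted p = 0.00644) and 0.49 (SE 0.12, edgeR adjusted p = 0.0319), and HSPE1 by 0.67 (SE 0.13) and 0.47 (SE 0.13). The last 500 transcript bases of HSPE1 overlap the readthrough gene HSPE1-MOB4 on the same strand, so its reads may be shared. HSPA9, the HSP90 homologue TRAP1 and the J protein DNAJA3 did not pass, at 0.36, 0.49 and 0.16 against miR-200a and -0.01, 0.34 and 0.18 against the NC mimic.

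The 17 ER members gave a different set of values. HSPA5, the ER HSP70 and the usual marker of ER stress, had 2738 and 2491 CPM with the NC mimic, 2387 and 2337 CPM with miR-200a, and 1988 and 2380 CPM in the labelled co-transfected libraries. The co-transfected libraries overlapped those of miR-200a and lay below those of the NC mimic, and the log2 fold changes of -0.11 (SE 0.12) and -0.26 (SE 0.12) did not pass. HSP90B1, the ER HSP90, had 1540 and 1602 CPM with the NC mimic, 1369 and 1415 CPM with miR-200a, and 1217 and 1082 CPM in the co-transfected libraries. The groups were stepwise and did not overlap, and HSP90B1 fell by 0.45 on the log2 scale against the NC mimic (SE 0.11, edgeR adjusted p = 0.0251), with -0.28 (SE 0.11, edgeR adjusted p = 0.115) against miR-200a. HSP90B1 was thus lower while the cytosolic HSP90AA1 and HSP90AB1 were higher, in the same 2 libraries.

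The lectin chaperones CALR and calnexin (CANX), which hold glycoproteins, gave -0.10 and 0.03 against miR-200a and -0.22 and 0.05 against the NC mimic. The disulfide isomerases PDIA3, PDIA4 and PDIA6 gave -0.18, -0.33 and -0.31 against miR-200a and -0.07, -0.42 and -0.37 against the NC mimic. All 6 of those isomerase values were negative and none passed. PDIA6 had 570 and 563, 546 and 537, and 510 and 366 CPM, so the second co-transfected library stood well below the first.

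DNAJB11, a J protein that recruits HSPA5, was the ER member called higher in both comparisons. It had 90.6 and 96.3 CPM with the NC mimic, 83.0 and 89.7 CPM with miR-200a, and 137 and 125 CPM in the co-transfected libraries, a rise of 0.60 (SE 0.14, edgeR adjusted p = 0.0202) and 0.49 (SE 0.14, edgeR adjusted p = 0.0416). The last 500 bases of DNAJB11 overlap a same-strand gene, AC068631.2, with which reads may be shared. CRELD2 had 26.1 and 26.4, 29.9 and 38.1, and 45.5 and 50.1 CPM, with the groups in that order and without overlap. It rose by 0.86 (SE 0.19, edgeR adjusted p = 0.0187) against the NC mimic, with 0.49 (SE 0.18, edgeR adjusted p = 0.102) against miR-200a.

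XBP1, a transcription factor of the unfolded protein response, had 48.8 and 49.3, 45.7 and 40.5, and 47.6 and 33.4 CPM, and its log2 fold changes of -0.09 (SE 0.20) and -0.28 (SE 0.20) did not pass. HERPUD1 had 39.2 and 47.6, 40.1 and 38.1, and 33.2 and 13.4 CPM. Both co-transfected libraries were below the rest, but by very different amounts, and the log2 fold changes were -0.75 (SE 0.32, edgeR adjusted p = 0.150) and -0.89 (SE 0.33, edgeR adjusted p = 0.0970). Which ER genes were called lower depended on which co-transfected library was kept. Without the first, 12 members of any compartment were called lower against miR-200a, among them PDIA4, PDIA6, HERPUD1 and HSP90B1, where 18.2% of all tested genes were. Without the second, 5 were, among them HSPA5, CALR and HSP90B1, where 11.5% of all tested genes were. Both shares are over all 54 members and are near those of all tested genes. They do not describe the 17 ER members alone, whose share in these fits was not compared. Against miR-200a without the first, DNAJB9 gave -1.10 and MANF -0.57, but DNAJB11 gave 0.54, SDF2L1 0.64 and CRELD2 0.56. Without the second, PDIA3 gave -0.29 and DNAJB11 0.63. HSP90B1 was called lower in both of those fits, at -0.36 and -0.24.

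Ratios within a library do not depend on the scaling between libraries. The summed counts of the cytosolic, TRiC and prefoldin members over those of the ER members were 1.55 and 1.55 under the NC mimic, 1.58 and 1.60 under miR-200a, and 2.38 and 2.41 in the labelled co-transfected libraries. The other 4 libraries were close together, and the 2 co-transfected libraries stood apart from them and close to each other. This ratio and the shares below are sums, weighted to the most abundant members. Of the 74583 and 79219 cytosolic, TRiC and prefoldin counts in the co-transfected libraries, HSP90AA1 and HSP90AB1 together gave 41517 and 48061. Of the 31329 ER counts in the first, HSPA5 gave 8393 and HSP90B1 5138. HSP90AA1 and HSP90AB1 together over HSP90B1 gave 4.93 and 4.49, 5.19 and 5.04, and 8.08 and 10.4. The ratio of HSPH1 to HYOU1, an HSP110-like protein of the ER, was 0.981 and 1.03, 0.973 and 0.833, and 1.66 and 1.96.

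HSPA8 over HSPA5 was 0.189 and 0.216, 0.163 and 0.171, and 0.368 and 0.246, with both co-transfected libraries highest, both miR-200a libraries lowest, and the co-transfected libraries apart from each other. Within the HSP90 pair, the inducible HSP90AA1 over the constitutive HSP90AB1 was 0.755 and 0.730, 0.811 and 0.813, and 0.949 and 0.952. All members together took 2.33% and 2.30% of counts under the NC mimic, 2.21% and 2.23% under miR-200a, and 2.63% and 2.71% in the co-transfected libraries. The cytosolic share was 1.03% to 1.07% in the NC mimic and miR-200a libraries and 1.38% and 1.50% in the co-transfected libraries, whereas the ER share was 0.824% to 0.874% and then 0.741% and 0.756%. With 2 libraries a group, an exact permutation test of 1 ratio cannot go below a two-sided p of 0.333, so the ratios are given without a test.

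**Figure D3:**
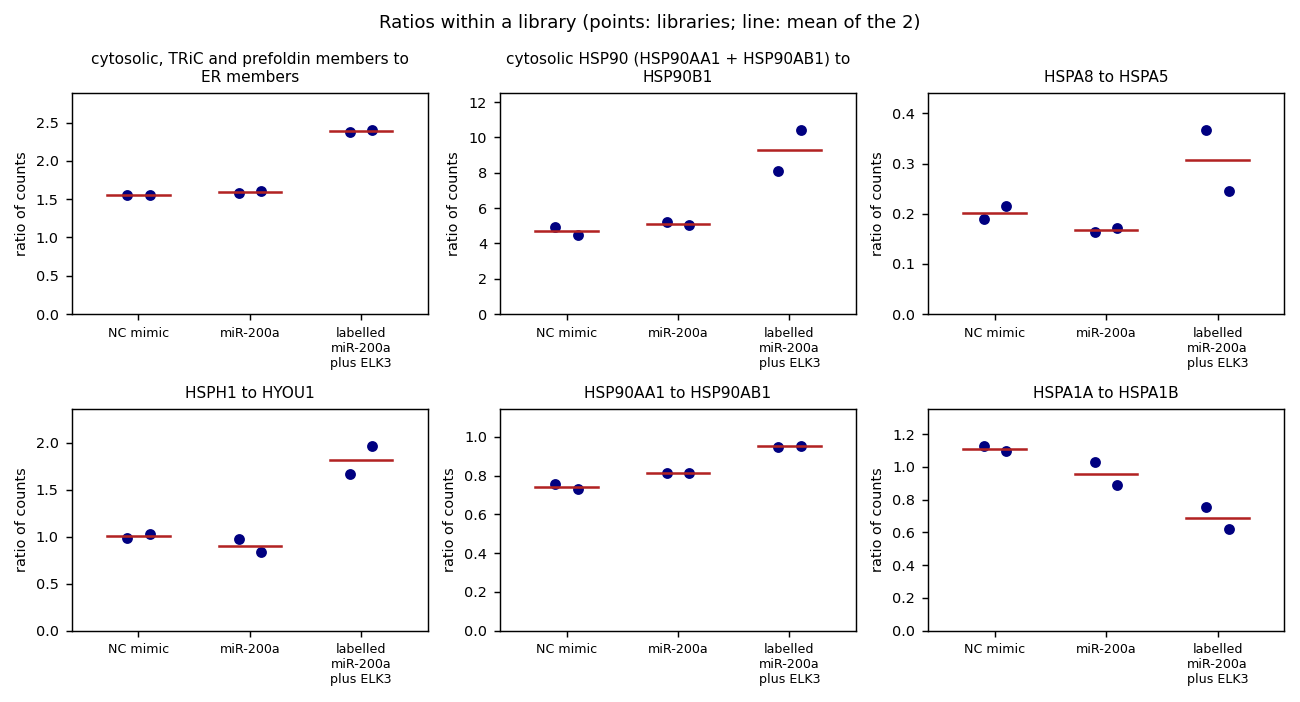
Ratios of counts within each of the 6 libraries, with 1 point per library, a line at the group mean and axes starting at 0. The ratio of cytosolic, TRiC and prefoldin counts to ER counts sits at 1.55 to 1.60 in the NC mimic and miR-200a libraries and at 2.38 and 2.41 in the labelled co-transfected libraries, while HSPA1A to HSPA1B is lowest there.

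The members were also grouped by the promoter elements shown above. Of the 7 members with a heat shock element, 7 were called higher against miR-200a (0.46 to 0.92, median 0.69) and 4 against the NC mimic (0.15 to 0.71, median 0.48). The shares called higher over all tested genes were 7.03% and 6.92%. The 10 members with an ER stress element of either form gave 0 calls against miR-200a (-0.75 to 0.49, median -0.10), and against the NC mimic CRELD2 was higher and HSP90B1 lower. Among the 32 members with a window and neither element, 10 and 8 were called higher, with medians of 0.30 and 0.20. Those counts were also above the shares over all tested genes, and the difference between the sets was not tested. HSPH1, the member with the largest called rise, was among those 32, as were HSPA1A and HSPA1B, whose windows did not hold these letters. HSPE1, called higher in both comparisons, was also among them. The HSPD1 match shown, at chr2:197500060-197500088, lies past the HSPE1 start (chr2:197499994, plus strand) and outside the HSPE1 window.

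Of 38 other tested genes with the heat shock element in a promoter window, 3 were called higher and 6 lower against miR-200a, with a median of -0.05, beside 7.03% higher and 5.91% lower over all tested genes. The difference between members and other genes with the element was not tested. ELK3 belongs to the ETS family, whose members bind sites with a GGAA core. The ETS site CCGGAAGT, searched on both strands, was in 4.14% of all windows. By gene, it was in a window of 10.2% of the 9373 tested genes with one and of 10.2% of the members, so the members held it as often as tested genes did. Of the 5 members with it (AHSA1, CCT2, DNAJA1, DNAJB9 and PFDN6), 2 were called higher against miR-200a. Of 953 other tested genes with this site, 101 were called higher and 16 lower against miR-200a.

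**Figure D4:**
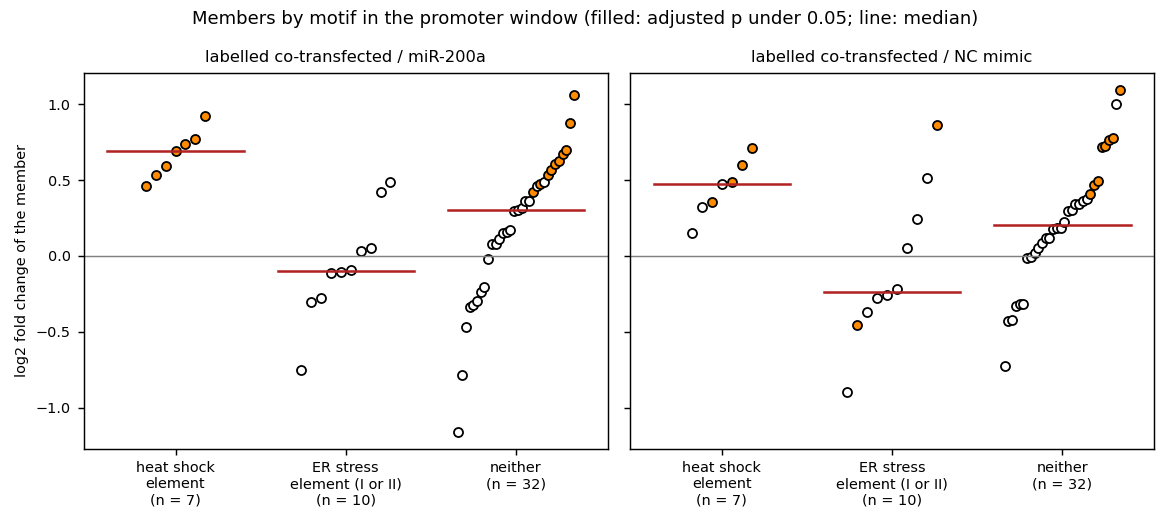
Log2 fold change of the 49 members with a promoter window, split by the element found in it, for the labelled co-transfected libraries against miR-200a and against the NC mimic, with filled points at an adjusted p under 0.05 and a line at each median. The 7 heat shock element genes are all filled against miR-200a, with a median of 0.69, and the 10 genes with an ER stress element are all open there, with a median of -0.10.

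Other genes of the pathway, taken from lists of 136 further genes, were read beside the members. Over all tested genes, 7.03% were called higher against miR-200a and 6.92% against the NC mimic. Of 33 tested cytosolic chaperones and co-chaperones outside the members, 7 (21.2%) were called higher and 0 lower against miR-200a. Against the NC mimic, 4 (12.1%) were higher and 0 lower. They included PPID, an HSP90-bound prolyl isomerase (0.98, SE 0.17, against miR-200a), and BAG2, an exchange factor of HSP70 (0.71, SE 0.16, and 0.86, SE 0.17). HSF1 itself, which transcribes heat shock genes, gave 0.34 (SE 0.19) and 0.15 (SE 0.19) and did not pass. Of 7 further TRiC and prefoldin genes, 2 (28.6%) were higher against miR-200a and 0 against the NC mimic. The 2 were the prefoldin subunit VBP1 and the prefoldin-like PDRG1, both at 0.91 against miR-200a. Of 16 further mitochondrial genes, 3 (18.8%) were higher against miR-200a and 1 (6.25%) against the NC mimic. The second share is near that over all tested genes. GRPEL1, the exchange factor of HSPA9, was at 0.70 (SE 0.14) and 0.77 (SE 0.14) and is given as a single value.

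Of 38 further ER folding enzymes, edgeR and DESeq2 each called 0 against miR-200a. At an unadjusted p under 0.05, 4 were higher and 4 lower, where 2083 and 1784 of all 12650 tested genes were. Against the NC mimic 2 were higher, ERO1A (0.52, SE 0.14) and the membrane thioredoxin TMX2 (0.76, SE 0.15). These are 5.26% of the list, near the 6.92% over all tested genes, so both are single values. ERO1A, the oxidase that recharges disulfide isomerases, had 576 and 455 counts under the NC mimic, 1231 and 1339 counts under miR-200a, and 914 and 760 counts in the co-transfected libraries. It was the single gene of all these lists called by edgeR in miR-200a against the NC mimic, with a rise of 0.94 (SE 0.14, edgeR adjusted p = 0.0343). Of 31 stress sensors and ER-associated degradation genes, 2 were higher and 2 lower against miR-200a, and 2 higher and 1 lower against the NC mimic. These counts are near the background shares of 7.03% and 5.91%, and of 6.92% and 5.95%, so the genes below are single values and not a result about the list. PPP1R15A, a phosphatase subunit that ends the translational arrest of ER stress, fell by 0.86 (SE 0.12) and 1.15 (SE 0.12) on the log2 scale, and VCP, the ATPase that extracts ER clients, rose by 0.56 (SE 0.12) and 0.60 (SE 0.12). CHAC1, a glutathione-degrading enzyme induced by ATF4, had 14 and 16 counts under miR-200a and 59 and 54 counts in the co-transfected libraries, a rise of 2.10 (SE 0.38). EDEM3, a mannosidase that marks glycoproteins for degradation, rose by 1.32 (SE 0.18) against the NC mimic, with 0.37 (SE 0.17) against miR-200a. For miR-200a against the NC mimic EDEM3 gave 0.95 (SE 0.18, edgeR adjusted p = 0.0716). DESeq2 called 1 gene of this list higher in that comparison. DDIT3, the ER stress factor CHOP, gave -0.02 (SE 0.16) and -0.22 (SE 0.16) and did not pass.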

How the data were processed

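Raw read counts by gene symbol were deposited by the authors, with 1 file for each of 6 QuantSeq 3′ mRNA libraries. The submitters' processing notes name Bowtie2, edgeR and the build hg19, and the methods name ExDEGA. The counting program, the annotation and the treatment of reads matching several places are not given in the sources used here. Of 25737 lines, the 286 symbols on several lines were summed, leaving 24462 symbols. Groups came from the sample labels. Counts were compared in R 4.3.3 with edgeR 4.0.16 (TMM, filterByExpr with a minimum count of 10, quasi-likelihood test, 3 residual degrees of freedom, all 6 libraries in 1 model), and p-values were adjusted by Benjamini-Hochberg over 12650 genes with a threshold of 0.05. The precision of low values is set by depth, with 3 counts as the floor. The settings and outcome of a run of the fit on simulated data are not reported here, so no result rests on it.

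Alternatives were DESeq2 1.42.0, no filter, upper-quartile and RLE normalization, 2 groups only, a replicate block, limma 3.58.1 on quantile-normalized log2(count + 1), and each library left out. The members and the other lists were chosen with earlier results of these data known. Named members are those called in any comparison, the member with the smallest p in a compartment without calls, and HSPA1A, HSPA1B, HSPA5, XBP1, HERPUD1 and other usual readouts. The remaining members, HSF1 and DDIT3 were named after their values were seen. Other pathway genes are the called ones with the smallest p. Gene positions, 3′UTRs (the longest of each gene) and overlaps came from GENCODE release 29 on GRCh38, matched by symbol because the files hold no coordinates. Protein sequences were not used here.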

Additional observations from a re-analysis of the deposited data

How the results depend on the processing

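The counts of members called depended on the fit, while all 20 and all 15 higher members kept their direction under each alternative run. Against miR-200a, the 20 higher members became 8 in a model of 2 groups, 0 with limma and 0 to 27 when 1 library was left out, and the 0 lower members became 1 with no filter and 0 to 12 with 1 library left out. Against the NC mimic, the 15 higher members became 9 with upper-quartile normalization, 6 with 2 groups, 10 with DESeq2, 8 with the replicate block, 1 with limma and 0 to 23 with 1 library left out. The 1 lower member became 2 with no filter, 0 with 2 groups, 0 with the replicate block and 0 with limma. In the same order, 6.51%, 2.38%, 4.52% and 1.79% of tested genes were called lower. All these member counts also moved when 1 library was left out. For miR-200a against the NC mimic, no filter gave 1 higher member, where 0.847% of tested genes were called higher. The model of 2 groups gave 3 higher and 4 lower, where 4.77% and 3.12% of tested genes were. Members called higher by DESeq2, no filter, both other normalizations, the block and 2 groups alike were 8 against miR-200a (HSPA8, HSPH1, HSP90AA1, STIP1, CHORDC1, CCT6A, HSPD1 and HSPE1) and 6 against the NC mimic (HSPH1, HSP90AA1, STIP1, AHSA1, CCT6A and CRELD2). The cause of these changes was not tested.

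Over all tested genes, upper-quartile normalization gave 622 higher and 882 lower against miR-200a where TMM gave 889 and 748, and 677 and 902 against the NC mimic where TMM gave 876 and 753. Over genes, the deviations of same-numbered libraries had r of -0.0029, -0.0359 and -0.1085. With 2 libraries a group, these values cannot show whether same-numbered libraries were handled together, and no label says so. The replicate block called 598 higher and 559 lower genes against miR-200a and 15 members higher. A block with crossed numbers, chosen after seeing the data, called 18 and 15 members higher.

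Among the named genes, members and other pathway genes together, 18 values changed sign when 1 library was left out, none of them called with all libraries. Outside the named genes, CCT4 (-0.23 and 0.34) and PFDN2 (-0.33 and 0.24) were called in opposite directions against miR-200a without the first and the second co-transfected library. With 1 library left out, the log2 fold changes for miR-200a against the NC mimic ran from -0.0617 to 0.1228 for HSPH1, -0.0326 to 0.073 for HSP90AA1, -0.1517 to 0.0752 for HSPA14, -0.0653 to 0.0965 for PFDN4, -0.0571 to 0.0074 for HSPA1A, -0.0335 to 0.1753 for GRPEL1 and -0.0226 to 0.1112 for VCP. Against miR-200a, the labelled co-transfected libraries gave -0.8767 to 0.0787 for HSPA1A, -0.2536 to 0.4233 for HSPA1B, -0.2917 to 0.0137 for HSPA5 and -0.3665 to 0.1002 for XBP1, and against the NC mimic they gave -0.8806 to 0.0719 for HSPA1A, -0.0372 to 0.6367 for HSPA1B and -0.0268 to 2.4059 for HSPB8. Low counts limit HSPB8 and DNAJB4, and 3 residual degrees of freedom limit the power of each comparison.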
